A study of Mus musculus with 24 samples.

Results

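Apolipoprotein genes and *Mttp* were examined in liver RNA of lipodystrophic and control mice given vehicle or FGF21. The genes were taken by name, as the apolipoproteins *Apoa1*, *Apoa2*, *Apoa4*, *Apoa5*, *Apob*, *Apoc2*, *Apoc3*, *Apoe*, and *Apom* together with *Mttp*, and all 10 were found among the 23972 genes of the count table. Liver RNA-Seq was available for 24 libraries from female mice on a C57BL/6J background that carried floxed *Lmna* alleles (*Lmna* fl/fl, with loxP sites around exons 10 and 11). Control mice lacked *Adipoq*-Cre, and *Lmna* ADKO mice carried it, so that *Lmna*, the gene for lamin A/C, was deleted in adipocytes and not in hepatocytes. Mice were 12 to 14 weeks old at the start, were housed at 22°C, and ate a 60% high-fat diet for 4 weeks before and 8 weeks after receiving an AAV8 vector for mouse FGF21 or vehicle. Vehicle held no control vector, so the vector and FGF21 cannot be told apart. There were 7 control livers with vehicle, 3 control livers with FGF21, 6 *Lmna* ADKO livers with vehicle, and 8 *Lmna* ADKO livers with FGF21. Libraries are numbered within each group by ascending animal number.

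The groups named rescue in the labels were taken as the FGF21 groups. Reads of *Fgf21* itself did not separate them from vehicle, with 5.36 ± 2.41 (SD, n = 8) CPM (counts scaled to library size by the TMM method) against 7.99 ± 2.48 (SD, n = 6) CPM in *Lmna* ADKO livers and 4.78 ± 2.29 (SD, n = 3) CPM against 4.01 ± 3.18 (SD, n = 7) CPM in controls. Each library held 19863304 to 21510054 reads assigned to genes. *Lmna* averaged 18.6 ± 2.47 (SD, n = 7) CPM in control and 26.7 ± 2.57 (SD, n = 6) CPM in *Lmna* ADKO livers with vehicle, where hepatocytes kept the gene. It was higher in *Lmna* ADKO livers, with a log2 fold change of 0.52 (edgeR adjusted p = 0.0032), for a reason that was not tested. In 3 libraries (library 7 of *Lmna* ADKO with FGF21, library 3 of control with FGF21, and library 3 of control with vehicle), log2 CPM fell most steeply with exonic gene length, with slopes from -0.33 to -0.15 against -0.11 to 0.13 in the other 21 libraries. Hepatocyte markers (*Alb*, *Ttr*, and 6 others) were present in every library, at a summed 63544 to 131708 CPM. Of the adipocyte markers, *Lep* was at 0 in both vehicle groups, and the summed level of the 4 markers was at most 3.61 CPM in any library.

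Liver packages triglyceride into very-low-density lipoprotein (VLDL), in which *Apob* encodes the structural protein and *Mttp* the transfer protein that loads lipid onto it. The exchangeable apolipoproteins then govern the fate of the particle. Products of *Apoc2* and *Apoa5* promote, and that of *Apoc3* restrains, triglyceride hydrolysis by lipoprotein lipase, whereas the product of *Apoe* is a ligand for receptors that clear remnants. *Apoa1* and *Apoa2* encode the main proteins of high-density lipoprotein (HDL), *Apom* encodes the HDL protein that carries sphingosine-1-phosphate, and *Apoa4* encodes a protein of triglyceride-rich particles and HDL that is made mainly in intestine and, in mice, also in liver.

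Several of these genes lie side by side in the genome (GRCm38). *Apoa1*, *Apoc3*, *Apoa4*, and *Apoa5* occupy 43.3 kb of chromosome 9, from 46228580 to 46271919, with *Apoc3* on the minus strand and the others on the plus strand. *Apoc2* and *Apoe* are both on the minus strand of chromosome 7, at the ends of a 27.6-kb stretch from 19671579 to 19699188 that also holds *Apoc1* and *Apoc4*. The promoters of *Apoa4* and *Apoc2* are shown because these genes rose in *Lmna* ADKO livers, and that of *Apoa1* as a chromosome 9 neighbor of *Apoa4*, transcribed in the same direction, that did not pass the test (*Apoa5* is another). They are RefSeq sequences (GRCm38.p6), printed 5′ to 3′ on the gene's strand up to the first annotated exon base. *Apoa4* is chr9:46240594-46240695 on the plus strand, *Apoc2* is chr7:19677942-19678191 on the minus strand, and *Apoa1* is chr9:46228380-46228579 on the plus strand. Capitals mark a match to one of the motifs searched.
Apoa4: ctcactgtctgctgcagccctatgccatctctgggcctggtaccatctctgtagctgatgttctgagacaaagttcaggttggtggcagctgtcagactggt
Apoc2: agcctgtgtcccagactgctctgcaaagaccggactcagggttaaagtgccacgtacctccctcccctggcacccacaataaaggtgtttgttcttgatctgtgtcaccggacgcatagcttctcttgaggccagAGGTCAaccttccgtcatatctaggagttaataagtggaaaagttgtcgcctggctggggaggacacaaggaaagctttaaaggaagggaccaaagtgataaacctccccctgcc
Apoa1: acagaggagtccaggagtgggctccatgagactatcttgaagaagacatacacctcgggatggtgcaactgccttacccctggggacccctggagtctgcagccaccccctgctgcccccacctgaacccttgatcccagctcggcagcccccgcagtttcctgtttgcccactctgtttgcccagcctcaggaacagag
Exact letters of 9 motifs were searched on both strands, among them the TATA box (TATAAA), the nuclear receptor hexamer (AGGTCA) and a variant of it (GGGTCA), an E-box (CACGTG), a forkhead site (TGTTTAC), and exact forms of C/EBP, CRE, HNF4, and SREBP sites. The stretch before *Apoc2* held AGGTCA once, starting 115 bases before the start site and overlapping no other match, and 14.02% of the 32851 promoter windows of the same table hold these letters. The stretches before *Apoa4* and *Apoa1* held none of the 9. The members had 13 windows in this table, some of them overlapping windows of 1 gene. Of the 13, 5 held TATAAA and 4 held GGGTCA, and both windows of *Apoa5*, which overlap, held both of these and the E-box. Of all windows, 12.4% hold TATAAA and 11.7% hold GGGTCA.

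The 10 genes together took between 3.99% and 7.80% of all counted reads. In control livers with vehicle, the level per kilobase of exon followed the order *Apoe* (13798 ± 3270 CPM per kb, SD, n = 7), *Apoa2* (10078 ± 3025), *Apoa1* (5368 ± 1418), *Apoc3* (1830 ± 471), and *Apoa5* (704 ± 141). Each of these genes was above the next in 7 of 7 libraries. *Apoc2* (275 ± 108 CPM per kb), *Apom* (260 ± 46.7), *Apoa4* (213 ± 166), and *Apob* (185 ± 16.1) followed at levels that did not separate, since *Apoc2* exceeded *Apom* in 3 of 7 libraries and *Apoa4* exceeded *Apob* in 3 of 7. *Mttp* was lowest, at 34.8 ± 5.30 CPM per kb. In *Lmna* ADKO livers with vehicle, *Apoa4* moved to place 4 at 3020 ± 1522 CPM per kb (SD, n = 6), and *Apom* to place 9 at 83.5 ± 9.09. Among all genes, the per-length rank of *Apoa4* was 249 in control and 20 in *Lmna* ADKO livers, and that of *Apom* was 210 and 542. The order of the 3 most abundant genes was the same in all 4 groups.

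**Figure D1:**
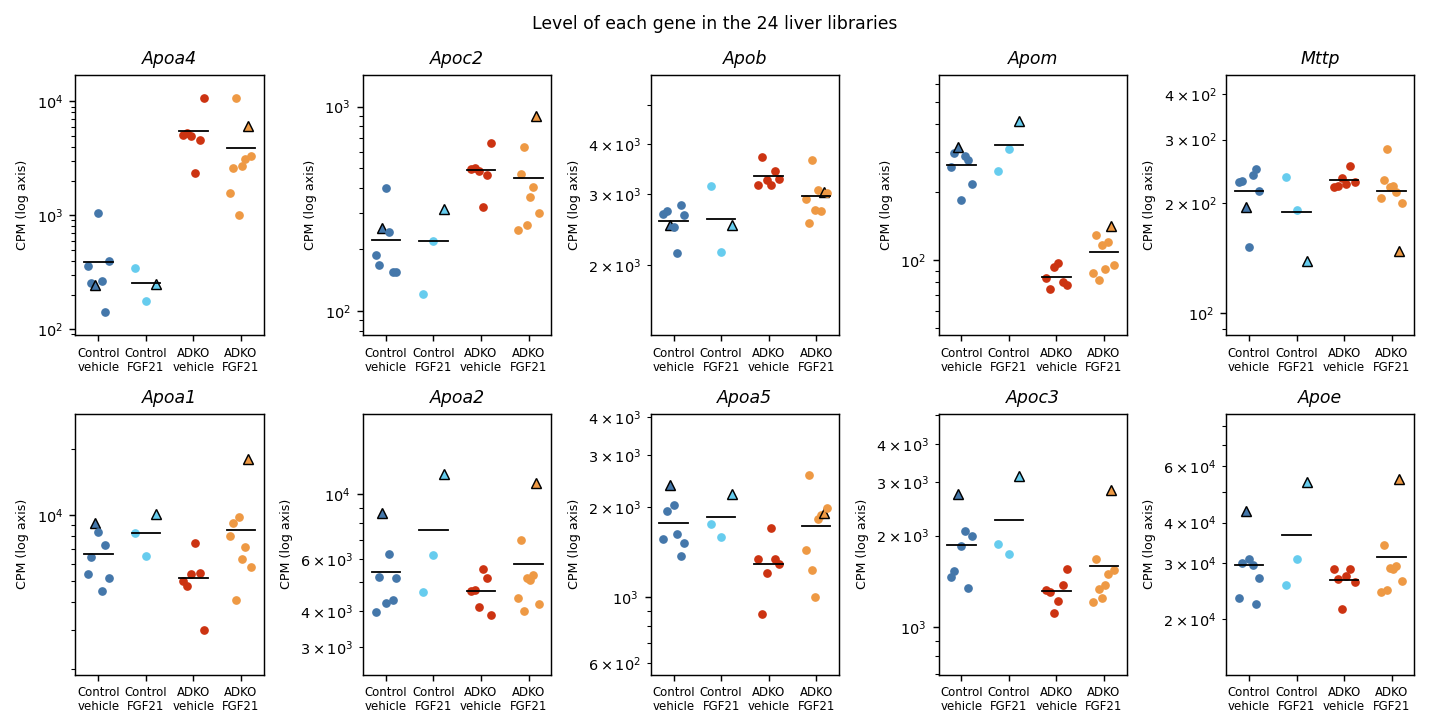
Level of each gene in CPM (log axes with a separate range per gene) in the 24 liver libraries, by group; lines are group means, and black-edged triangles are the 3 libraries in which level fell most steeply with gene length. *Apoa4* was higher and *Apom* lower in every *Lmna* ADKO library than in every control library of the same treatment, and *Apoe*, *Apoa2*, and *Apoc3* were highest in the 3 triangles.

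To ask how lipodystrophy affects these genes, *Lmna* ADKO and control livers with vehicle were compared first. *Apoa4* and *Apoc2* rose, *Apom* fell, and *Apob* rose by a smaller factor, whereas the HDL genes *Apoa1* and *Apoa2*, the remnant ligand *Apoe*, and *Mttp* did not pass the test. Of the 10 genes, 3 were called (2 higher, 1 lower), which required an adjusted p below 0.05 and a change of more than 1.5-fold, where 8.48% of all genes were. At the adjusted p alone, 4 passed, against 15.1% of all genes. DESeq2 called 3 and passed 5, and its share of all genes was not computed. The median log2 fold change of the 10 was -0.18, and that of all genes was 0.0027. These are livers in bulk, so that fewer cells of a type and less RNA per cell cannot be told apart.

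*Apoa4* changed most. Control livers with vehicle ranged from 142 to 1046 CPM, with a median of 266, and *Lmna* ADKO livers held 5022, 5273, 4973, 2336, 4609, and 10678 CPM in libraries 1 to 6. The groups did not overlap, and *Lmna* ADKO library 4, the lowest of its group, was still above the highest control. Means were 387 ± 302 (SD, n = 7) CPM and 5482 ± 2763 (SD, n = 6) CPM, a log2 fold difference of 3.83 (SE 0.541; edgeR adjusted p = 5.06e-05), or 14.2-fold. By an exact two-sided permutation test p was 0.000583, the smallest that 6 against 7 libraries allow. Too few animals shared a number series for a comparison within one, and with the digits of the animal number as a covariate the log2 fold change was 3.82 (adjusted p = 0.000567). The control library with 1046 CPM, library 4, lay far above the next control, at 396 CPM.

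*Apoc2*, the cofactor that lipoprotein lipase requires, was between 154 and 399 CPM in control livers with vehicle, with a median of 188. *Lmna* ADKO libraries 1 to 6 held 497, 502, 485, 322, 461, and 662 CPM. In 5 of 6 the level was above every control, and library 4 fell within the control range. The log2 fold difference was 1.13 (SE 0.294; edgeR adjusted p = 0.0102; exact permutation test, p = 0.00233). With the number of digits of the animal number as a covariate, the adjusted p was 0.0587. On the same strand, *Apoc2* shares 646 exonic bases with *Gm44805*, so reads in them are uncertain, and *Gm44805* itself averaged 19.9 ± 4.53 (SD, n = 7) CPM in control and 21.8 ± 3.23 (SD, n = 6) CPM in *Lmna* ADKO livers.

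*Apom* was the member that fell. Levels were 184 to 318 CPM in control livers with vehicle, with a median of 277, and 83.2, 74.7, 93.8, 97.8, 80.2, and 77.9 CPM in *Lmna* ADKO libraries 1 to 6. Every *Lmna* ADKO library was below every control. From 263 ± 47.3 (SD, n = 7) CPM to 84.6 ± 9.20 (SD, n = 6) CPM, *Apom* fell by 1.64 on the log2 scale (SE 0.148; edgeR adjusted p = 1.52e-08; exact permutation test, p = 0.000583), or 3.11-fold.

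Of the pair that builds VLDL, *Apob* rose and *Mttp* did not pass the test. *Apob* ranged from 2148 to 2829 CPM in control livers with vehicle, with a median of 2675, and was 3169, 3721, 3252, 3163, 3439, and 3284 CPM in *Lmna* ADKO libraries 1 to 6. The groups did not overlap, although the means, 2582 ± 225 (SD, n = 7) CPM and 3338 ± 213 (SD, n = 6) CPM, differed by only 29.3%. The log2 fold difference was 0.37 (SE 0.111; edgeR adjusted p = 0.0215), below the fold threshold. The call at the adjusted p alone was lost without control vehicle library 5 (adjusted p = 0.0536), without *Lmna* ADKO vehicle library 2 (adjusted p = 0.0589), and with the digits of the animal number as a covariate (adjusted p = 0.109). *Mttp* averaged 216 ± 32.9 (SD, n = 7) CPM in control and 232 ± 11.8 (SD, n = 6) CPM in *Lmna* ADKO livers, for a log2 fold change of 0.10 with a 95% interval from -0.15 to 0.36.

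Genes that act on lipoprotein lipase other than *Apoc2* had lower means in *Lmna* ADKO livers and missed the threshold. *Apoc3*, whose product restrains hydrolysis, was 1856 ± 477 (SD, n = 7) CPM in control and 1313 ± 146 (SD, n = 6) CPM in *Lmna* ADKO livers with vehicle, for a log2 fold change of -0.50 (edgeR adjusted p = 0.0711). Of 31 alternative settings, 7 put it past the threshold, with adjusted p from 0.000426 to 0.2001 over all 31, and 4 of 6 *Lmna* ADKO libraries were below every control. *Apoa5*, whose product promotes hydrolysis, was 1775 ± 355 (SD, n = 7) CPM and 1293 ± 267 (SD, n = 6) CPM, for a log2 fold change of -0.46 (edgeR adjusted p = 0.0892). In 3 of 31 alternatives it passed the threshold.

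For *Apoa1*, *Apoa2*, and *Apoe*, differences were within the spread between libraries, unlike for the HDL gene *Apom*. *Apoa1*, the main HDL protein and activator of LCAT, ranged from 4526 to 9237 CPM in control and from 3007 to 7428 CPM in *Lmna* ADKO livers with vehicle, and its log2 fold change was -0.36 (95% interval -0.86 to 0.14). *Apoa2* ranged from 3965 to 8649 CPM and from 3881 to 5558 CPM, with a log2 fold change of -0.21 (95% interval -0.65 to 0.24). *Apoe* ranged from 22411 to 43469 CPM and from 21558 to 28721 CPM, with a log2 fold change of -0.15 (95% interval -0.53 to 0.22). All 3 ranges overlapped broadly. The intervals of *Apoa2* and *Apoe* hold no fall beyond 0.652 on the log2 scale.

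**Figure D2:**
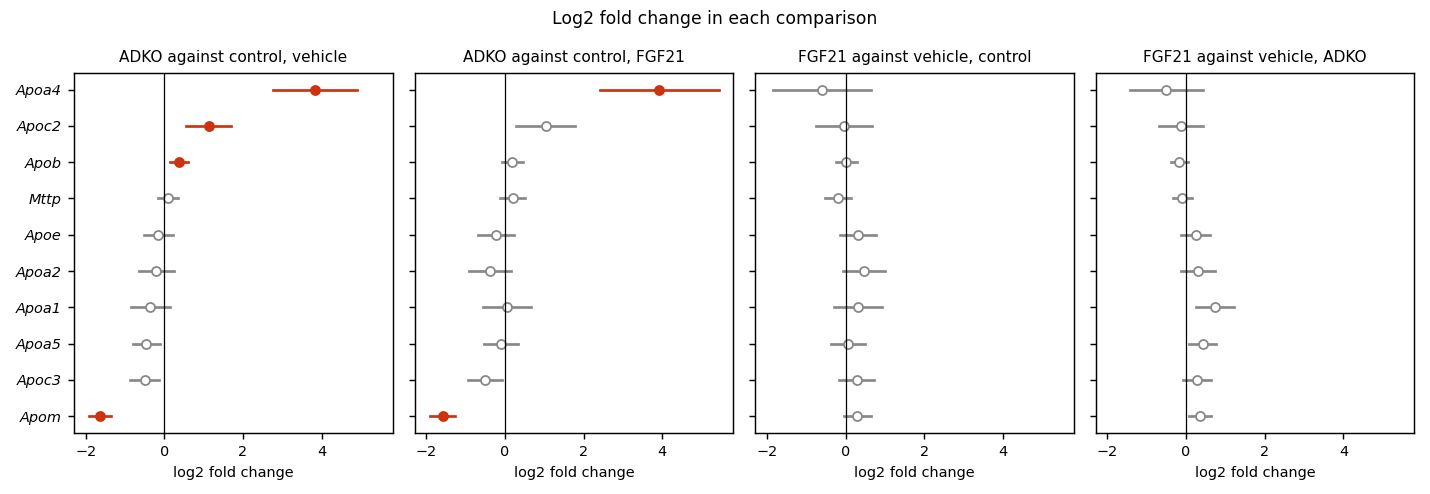
Log2 fold changes of the 10 genes in 4 comparisons, with bars for 95% intervals and filled red points for an adjusted p under 0.05 from edgeR. *Apoa4* and *Apom* passed in both comparisons of *Lmna* ADKO with control livers, at 3.83 and -1.64 with vehicle and 3.92 and -1.58 with FGF21, and no gene passed for FGF21 against vehicle.

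The same comparison was made between livers of mice that had received FGF21, with different animals on both sides. *Apoa4* was again higher and *Apom* again lower in *Lmna* ADKO livers. Of the 10 genes, 2 were called, where 2.88% of all genes were, and the same number passed at the adjusted p alone, against 3.85% of all genes. DESeq2 called 3. *Apoa4* was 344, 178, and 247 CPM in the 3 control livers, and it ranged from 1012 to 10740 CPM with a median of 2905 in the 8 *Lmna* ADKO livers. No library of one group reached the other. The log2 fold difference was 3.92 (SE 0.772; edgeR adjusted p = 0.00559; exact permutation test, p = 0.00606, which is the lowest that 3 against 8 can give). Without the 3 libraries of steepest slope on gene length, which left 2 control livers, it was 3.79 with an adjusted p of 0.0528. Among animals with 4-digit numbers it was 3.89 (adjusted p = 0.00178).

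*Apom* was 248, 311, and 414 CPM in control livers with FGF21, and it ranged from 82.0 to 142 CPM with a median of 106 in *Lmna* ADKO livers. The log2 fold difference was -1.58 (SE 0.163; edgeR adjusted p = 1.18e-06; exact permutation test, p = 0.00606). It was -1.53 among animals with 4-digit numbers (adjusted p = 0.000667), and -1.43 without the 3 libraries of steepest slope. *Apoc2* averaged 219 ± 97.3 (SD, n = 3) CPM in control and 448 ± 221 (SD, n = 8) CPM in *Lmna* ADKO livers, for a log2 fold change of 1.03 (edgeR adjusted p = 0.140), and 5 of 8 *Lmna* ADKO libraries were above every control. DESeq2 did call *Apoc2* there, at 1.02 (DESeq2 adjusted p = 0.0361), so its call depends on the method. *Apob* had a log2 fold change of 0.19 (95% interval -0.08 to 0.45). For *Apoc3* it was -0.51 (edgeR adjusted p = 0.226), and leaving out 1 library gave values from -0.69 without *Lmna* ADKO library 7 (adjusted p = 0.0192) to -0.19 without control library 3 (adjusted p = 0.783), both among the 3 libraries of steepest slope. For *Apoa5* the log2 fold change was -0.10 (95% interval -0.52 to 0.33). Whether a gene that passed with vehicle only responded differently was tested by the interaction below.

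Next, FGF21 was compared with vehicle within each genotype, comparisons that share their vehicle and FGF21 livers with those above. No member passed in either genotype. In control livers, 0 of 10 were called by edgeR or DESeq2, where 0.0542% of all genes were called by edgeR. An unadjusted p under 0.05 was found for 0 of 10, against 1476 of all 23972 genes. The widest interval was that of *Apoa4*, with a log2 fold change of -0.59 (95% interval -1.84 to 0.65), so that at 3 against 7 livers a sizable change of this gene would not have been detectable. Every control with FGF21 had a 4-digit animal number, and most controls with vehicle had a 3-digit one. Treatment and number series can therefore hardly be told apart in controls, nor in the interaction, which uses the same livers.

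In *Lmna* ADKO livers, 0 of 10 were called by edgeR or DESeq2, as were 0% of all genes, and 3 of 10 had an unadjusted p under 0.05, as had 1608 of all 23972 genes. These were *Apoa1*, *Apom*, and *Apoa5*, all with higher means after FGF21. *Apoa1* was between 3007 and 7428 CPM with vehicle, with a median of 5190, and between 4099 and 18058 CPM with FGF21, with a median of 7625. In 4 of 8 libraries with FGF21 it exceeded every vehicle library. The log2 fold difference was 0.73 (SE 0.250; unadjusted p = 0.00716, edgeR adjusted p = 0.682), and the highest library, library 7, was one of the 3 of steepest slope.

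*Apom* averaged 84.6 ± 9.20 (SD, n = 6) CPM with vehicle and 108 ± 22.03 (SD, n = 8) CPM with FGF21 in *Lmna* ADKO livers, for a log2 fold change of 0.36 (unadjusted p = 0.0163, edgeR adjusted p = 0.704). For *Apoa5* the log2 fold change was 0.42 (unadjusted p = 0.0233, edgeR adjusted p = 0.704). *Apoa4* averaged 5482 ± 2763 (SD, n = 6) CPM with vehicle and 3881 ± 3151 (SD, n = 8) CPM with FGF21. Its log2 fold change was -0.50 (95% interval -1.44 to 0.44), as 1 FGF21 library exceeded and 2 lay below every vehicle library, and with 1 library left out it was between -0.92 (without FGF21 library 3) and -0.19 (without vehicle library 6). For *Apob* the log2 fold change was -0.17 (95% interval -0.38 to 0.04).

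The interaction of genotype and treatment passed for 0 of 10 genes in edgeR and in DESeq2, where 0.00417% of all genes passed by edgeR. An unadjusted p under 0.05 was found for 0 of 10, against 1165 of all 23972 genes. For *Apoa4* the difference between the genotype effects with FGF21 and with vehicle was 0.09 on the log2 scale (95% interval -1.44 to 1.63), for *Apom* 0.06 (95% interval -0.39 to 0.50), and for *Apoc2* -0.10 (95% interval -0.999 to 0.81). A different response of *Apob*, at -0.18 (95% interval -0.53 to 0.16), was therefore not shown.

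Levels of some members stood apart in the libraries where level fell most steeply with gene length, for a reason that was not tested. In the 3 libraries of steepest slope, *Apoe* (exonic length 2138 bases) was between 43469 and 54534 CPM, against 21558 to 34073 CPM in the other 21. *Apoa2* (537 bases) was between 8649 and 11741 CPM, against 3881 to 6976 CPM, and *Apoc3* (1014 bases) was between 2739 and 3142 CPM, against 1116 to 2071 CPM. For these genes the 3 libraries lay above all others, and they belong to 3 different groups. The 10 genes together took 6.07% to 7.80% of counted reads in the 3 libraries and 3.99% to 5.83% in the others. *Mttp* (6206 bases) was low in 2 of the 3. *Apoa4*, *Apoa5*, and *Apob* were within the range of the other libraries in all 3.

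**Figure D3:**
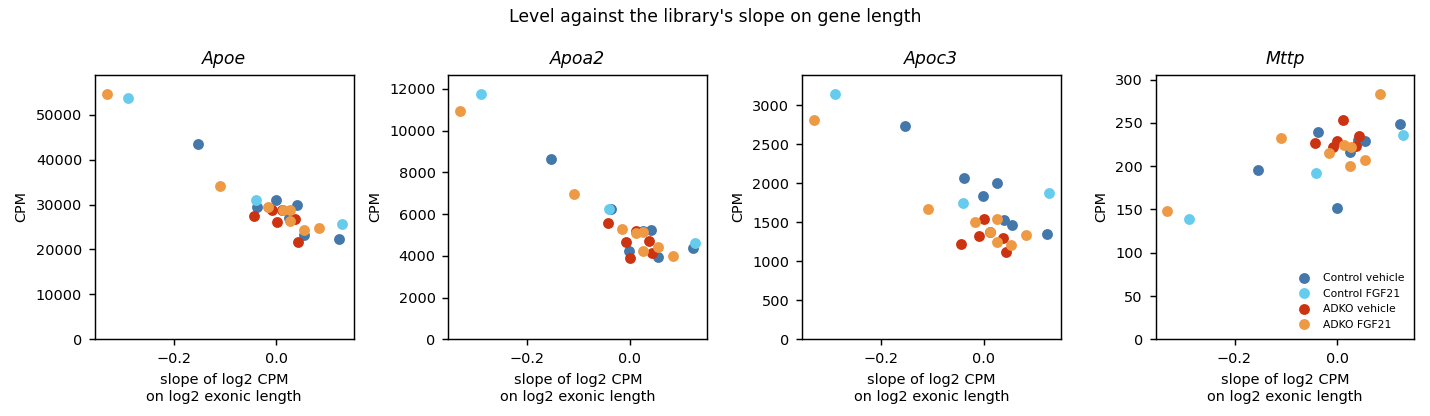
CPM of *Apoe*, *Apoa2*, *Apoc3*, and *Mttp* in each of the 24 libraries against the slope of log2 CPM on log2 exonic length in that library, colored by group. The 3 libraries with slopes from -0.33 to -0.15 held the highest *Apoe*, *Apoa2*, and *Apoc3*, with *Apoe* between 43469 and 54534 CPM.

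Co-variation among the members was examined after subtracting each group's mean from log2 CPM, over the 24 libraries. Of 45 pairs, 15 had an adjusted p under 0.05 by Pearson's r (100000 permutations of libraries within groups, Benjamini-Hochberg over the 45), 12 of them positive and 3 negative. By Spearman's rho 7 pairs did, all 7 positive, and 6 pairs passed by both. The strongest was *Apoa2* with *Apoe* (Pearson r = 0.93, adjusted p = 0.00045 by permutation, from the smallest p they can give; Spearman rho = 0.86, adjusted p = 0.00045; r = 0.87 without the 2 libraries farthest out). With the slope on gene length removed, r was 0.36. *Apoc3* with *Apoe* had r = 0.90 and rho = 0.76 (adjusted permutation p = 0.00135 and 0.00825; r = 0.79 without the 2 farthest), and 0.39 with the slope removed. In all, 5 pairs had an r above 0.7 in size, and 1 pair did with the slope removed.

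That pair was *Apoa4* with *Apoc2*, which lie on different chromosomes. Its r was 0.69 (unadjusted permutation p = 0.00079, adjusted 0.00711), 0.82 with the slope removed, and 0.74 without the 3 libraries of steepest slope. Spearman's rho was 0.44 (unadjusted permutation p = 0.0527, adjusted 0.140), and r was 0.57 without the 2 libraries farthest out on *Apoa4*, so that the relation rests in part on the extremes. The control library with the highest *Apoa4*, vehicle library 4, also held the highest *Apoc2* of the control livers, and vehicle library 6 held the most of both among *Lmna* ADKO livers with vehicle. Of the pairs among the chromosome 9 neighbors *Apoa1*, *Apoc3*, *Apoa4*, and *Apoa5*, none had an adjusted p under 0.05 by Pearson's r, and *Apoa5* with *Apoc3* did by Spearman's rho. That pair had rho = 0.57 (adjusted permutation p = 0.0442), r = 0.51 (adjusted 0.0563), r = 0.52 without the 2 farthest, and 0.070 with the slope removed. On chromosome 7, *Apoc2* with *Apoe* had r = 0.63 (adjusted permutation p = 0.0231), rho = 0.58 (adjusted 0.0529), r = 0.51 without the 2 farthest, and 0.066 with the slope removed.

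Within the chromosome 9 cluster, the ratio of *Apoa4* to *Apoa1*, both in CPM per kb, was between 0.0131 and 0.0852 in control livers with vehicle and between 0.0167 and 0.0282 with FGF21. In *Lmna* ADKO livers it was between 0.214 and 2.42 with vehicle and between 0.0701 and 1.78 with FGF21. The *Lmna* ADKO and control libraries with vehicle did not overlap, and *Apoa4* exceeded *Apoa1* in 1 library of each *Lmna* ADKO group. *Apoa4* varied most of the members, with a coefficient of variation of 78.1% in control and 50.4% in *Lmna* ADKO livers with vehicle, and *Apob* was among the least variable, at 8.70% and 6.37%.

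**Figure D4:**
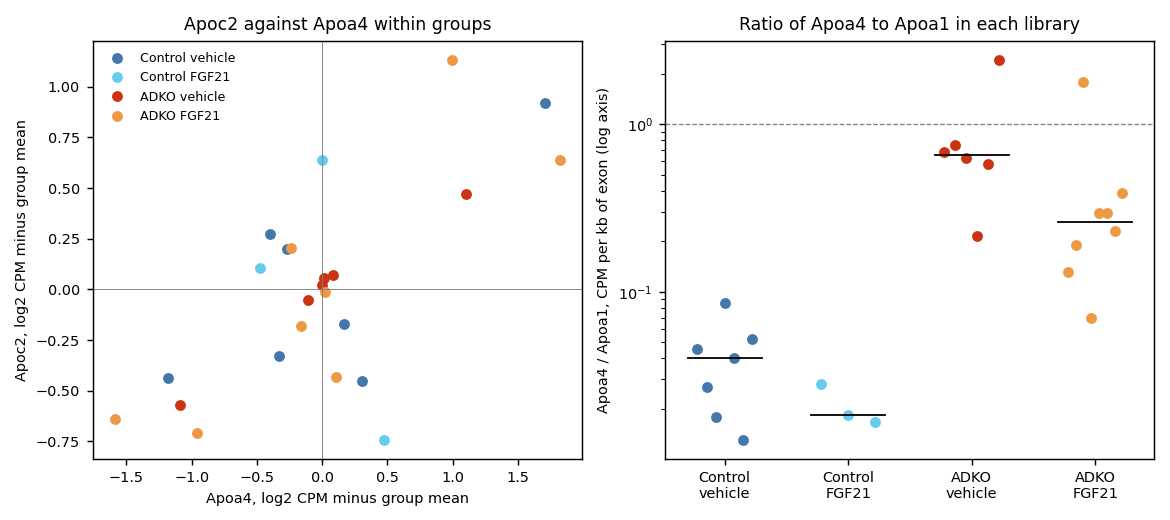
Left, *Apoc2* against *Apoa4* in each of the 24 libraries, in log2 CPM minus the group mean (r = 0.69); right, the ratio of *Apoa4* to *Apoa1* in CPM per kb (log axis), with lines at group medians and a dashed line at 1. With vehicle the ratio was at most 0.0852 in control and at least 0.214 in *Lmna* ADKO libraries.

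Over all 12482 other genes compared, the genes whose within-group pattern was most like that of *Apoa4* were *Fam83a* (r = 0.92 over 24 libraries), *Srxn1* (0.89), which encodes sulfiredoxin, and *Col1a1* (0.88), which encodes a fibrillar collagen chain. For *Apom* they were *Impdh2* (0.89), *Tom1* (0.88), and *Rpl4* (0.87), and for *Apoc2* they were *Snrpn* (0.91), *Maged2* (0.91), and *Atxn10* (0.90). These correlations are descriptions, picked as the highest of many. In *Lmna* ADKO livers with vehicle, *Fam83a* (log2 fold change 3.28, edgeR adjusted p = 0.0142) and *Srxn1* (1.13, 5.64e-06) were themselves higher. So were *Snrpn* (0.63, 0.00104), *Maged2* (0.67, 0.0393), and *Atxn10* (0.40, 0.00937), and *Impdh2* was lower (-0.42, 0.00816). *Col1a1*, *Tom1*, and *Rpl4* missed the threshold (edgeR adjusted p = 0.0576, 0.598, and 0.189). With the slope removed, r was 0.92, 0.89, and 0.88 for *Apoa4*, 0.83, 0.77, and 0.75 for *Apom*, and 0.84, 0.86, and 0.83 for *Apoc2*, in the order above.

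Among 7 other apolipoprotein genes, 0 rose and 2 fell in *Lmna* ADKO livers with vehicle at an adjusted p under 0.05, against 15.1% of all genes that passed in either direction. *Apoh* fell from 2586 ± 328 (SD, n = 7) CPM to 1716 ± 283 (SD, n = 6) CPM, and *Apof* fell from 761 ± 91.8 to 569 ± 43.6 CPM. The neighbors of *Apoe*, *Apoc1* and *Apoc4*, had log2 fold changes of -0.56 and -0.29 (adjusted p = 0.165 and 0.474 from edgeR). With FGF21, 1 of the 7 fell, *Clu*, with a log2 fold change of -0.53.

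Of 13 genes of VLDL assembly and export, 3 rose and 2 fell with vehicle. Of all genes, 15.1% passed in either direction with vehicle and 3.85% with FGF21. *P4hb*, which encodes the partner subunit that the *Mttp* product requires, rose from 1192 ± 149 (SD, n = 7) CPM to 1592 ± 95.6 (SD, n = 6) CPM, for a log2 fold change of 0.42 (edgeR adjusted p = 0.00409). *Sec23a*, a coat protein of vesicles that leave the endoplasmic reticulum, rose with a log2 fold change of 0.55, and the sorting receptor *Sort1* rose with 0.82. *Tm6sf2*, which is needed to load VLDL with lipid, fell from 59.2 ± 12.3 to 31.9 ± 2.61 CPM, for a log2 fold change of -0.89 (adjusted p = 1.27e-05). *Creb3l3*, a liver transcription factor of triglyceride metabolism, fell with -0.43. With FGF21, *P4hb* (0.56) and *Tm6sf2* (-0.76) passed in the same directions. Of the 3 genes that edit *Apob* mRNA, 0 passed in either comparison by edgeR, and in each 1 had an unadjusted p under 0.05 and 1 passed by DESeq2. An unadjusted p under 0.05 was found for 6481 of all 23972 genes with vehicle and 4063 with FGF21. *Apobec1*, the editing enzyme, had log2 fold changes of 0.30 and 0.43 (adjusted p = 0.0674 and 0.0767).

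Listed genes that act on particles in plasma and passed by edgeR were all lower in *Lmna* ADKO livers, with either treatment. Of 14 genes for lipases, their regulators, and HDL remodelling, 0 rose and 5 fell with vehicle, where 15.1% of all genes passed in either direction. *Lipc*, hepatic lipase, fell from 219 ± 42.7 (SD, n = 7) CPM to 84.3 ± 19.8 (SD, n = 6) CPM, for a log2 fold change of -1.38 (edgeR adjusted p = 6.25e-07). *Lcat*, the enzyme that esterifies cholesterol on HDL, fell from 624 ± 88.3 to 334 ± 42.1 CPM (-0.90), and *Angptl8*, an inhibitor of lipoprotein lipase, fell from 54.8 ± 19.3 to 17.5 ± 5.77 CPM (-1.65). *Pon1*, an HDL esterase, fell as well (-0.79). With FGF21, 5 of 14 were lower in *Lmna* ADKO livers, among them *Lipc* (-1.10), *Lcat* (-0.82), *Angptl4* (-0.82), and *Pcsk5* (-0.50). In either direction, 3.85% of all genes passed with FGF21. *Angptl4* averaged 149.8 CPM in *Lmna* ADKO and 264.4 CPM in control livers with FGF21, against 138.4 and 134.8 CPM with vehicle. Its log2 fold change with vehicle was 0.038 (edgeR adjusted p = 0.951), so a lower level in *Lmna* ADKO livers was seen with FGF21 only. In the list, 6 genes with vehicle and 9 with FGF21 had an unadjusted p under 0.05, and 5 and 7 passed by DESeq2. Of all 23972 genes, 6481 with vehicle and 4063 with FGF21 had an unadjusted p under 0.05. *Pltp* with vehicle (0.51, unadjusted p = 0.0151, edgeR adjusted p = 0.0827) and *Lpl* with FGF21 (1.27, unadjusted p = 0.0053, edgeR adjusted p = 0.0882) had higher means and missed the threshold. The median log2 fold change of the 14 was 0.036 with vehicle and -0.31 with FGF21.

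Receptor genes passed in both directions with vehicle. Of 10 genes for lipoprotein receptors and clearance, 1 rose and 4 fell, where 15.1% of all genes passed in either direction. *Sorl1*, a sorting receptor, rose with a log2 fold change of 0.71. *Lrp1*, a remnant receptor, fell from 551 ± 68.6 (SD, n = 7) CPM to 334 ± 20.5 (SD, n = 6) CPM (-0.72), and *Lsr* (-0.50) and *Scarb1*, the HDL receptor (-0.48), fell as well. With FGF21, 0 of 10 passed by edgeR, where 2 had an unadjusted p under 0.05 and 1 passed by DESeq2. Of 4 lipid efflux transporters, 0 passed with vehicle or FGF21 by edgeR, where 1 and 0 had an unadjusted p under 0.05 and 1 and 0 passed by DESeq2. Among all 23972 genes, 6481 with vehicle and 4063 with FGF21 had an unadjusted p under 0.05.

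Of 17 transcription factors and coactivators known to act on apolipoprotein genes, 1 rose (*Foxo1*, 0.51) and 5 fell with vehicle, among them *Mlxipl* (-0.95), which encodes the carbohydrate-responsive factor ChREBP, *Foxa2* (-0.80), *Nr5a2* (-0.35), and *Cebpa* (-0.48). *Hnf4a*, a main activator of these genes in liver, had a log2 fold change of -0.27 (edgeR adjusted p = 0.264). With FGF21, 1 of 17 passed, *Mlxipl* (-0.60), where 3.85% of all genes did (15.1% with vehicle). *Foxo1* and *Foxa2* had log2 fold changes of the other sign there, at -0.53 (unadjusted p = 0.0109, edgeR adjusted p = 0.132) and 0.18 (edgeR adjusted p = 0.724). The interaction passed for 0 of the 17 by edgeR, and 3 had an unadjusted p under 0.05, as had 1165 of all 23972 genes. A different genotype effect by treatment was therefore not shown. For FGF21 against vehicle, 0 of the 68 genes on these lists passed in either genotype by edgeR. In control livers 8 had an unadjusted p under 0.05 and 2 passed by DESeq2, and in *Lmna* ADKO livers 6 and 0 did. Among all 23972 genes, 1476 in control and 1608 in *Lmna* ADKO livers had an unadjusted p under 0.05.

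**Figure D5:**
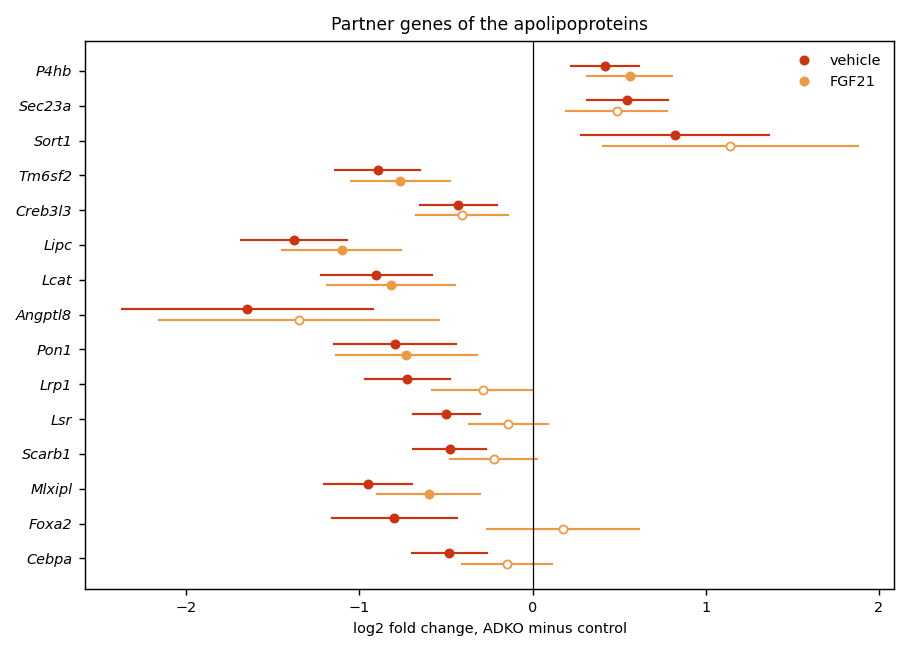
Log2 fold changes, *Lmna* ADKO minus control, of genes that act with the apolipoproteins, with vehicle (red) and with FGF21 (orange); bars are 95% intervals and filled points have an adjusted p under 0.05 from edgeR. *P4hb* was higher and *Tm6sf2*, *Lipc*, *Lcat*, *Pon1*, and *Mlxipl* lower in both.

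Markers of liver cell types moved with genotype beside these results. Of 8 hepatocyte markers, 0 rose and 5 fell with vehicle (*Hpd*, *Cps1*, *Fah*, *Ass1*, and *Asgr1*). Of all genes, 15.1% passed in either direction with vehicle and 3.85% with FGF21. The summed level of the 8 was 72237 to 128818 CPM in control and 66079 to 97546 CPM in *Lmna* ADKO livers with vehicle. *Alb* and *Ttr* had log2 fold changes of -0.33 and 0.04. Of 6 cholangiocyte markers, 2 rose, *Spp1* (1.83) and *Cftr*, which was at most 0.334 CPM with vehicle. The summed level was 27.1 to 51.2 CPM in control and 85.8 to 196 CPM in *Lmna* ADKO livers, most of it *Spp1* (32.7 ± 7.28, SD, n = 7, and 116 ± 38.5, SD, n = 6), which other liver cells also make, and *Krt19*, *Krt7*, *Epcam*, and *Sox9* averaged at most 2.85 CPM in either group and missed the threshold. Stellate cell and fibroblast markers rose in 2 of 6 (*Lrat* and *Dcn*), with sums of 227 to 293 and 282 to 363 CPM, of which *Dcn* was the most abundant (138 and 189 CPM on average). In the same list *Reln* (-0.20, unadjusted p = 0.0416) and *Des* (-0.27, unadjusted p = 0.0335) had lower means and missed the threshold (edgeR adjusted p = 0.165 and 0.144), and the median log2 fold change of the 6 was 0.08. Of 6 endothelial markers, 1 rose and 1 fell. By edgeR, 0 of 8 macrophage, 6 lymphocyte, and 4 adipocyte markers passed with vehicle, of which 2, 2, and 1 had an unadjusted p under 0.05 and 0, 1, and 1 passed by DESeq2. With vehicle, 6481 of all 23972 genes had an unadjusted p under 0.05. With FGF21, 1 hepatocyte marker fell by edgeR (*Hpd*), and 1 cholangiocyte marker passed by DESeq2 alone, where the summed level, again mostly *Spp1* (30.6 and 81.4 CPM on average), was 32.3 to 38.5 CPM in control and 50.4 to 242 CPM in *Lmna* ADKO livers. The part of these shifts in the levels of the apolipoprotein genes was not tested.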

How the data were processed

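Liver RNA-Seq of 24 libraries was analysed from gene counts that the authors deposited without normalization, whole numbers for 23972 genes. Per the labels, libraries were made from poly(A) RNA with dUTP in second-strand synthesis, and by the study's methods the annotation was Ensembl 102 and genes with a count of 0 everywhere were removed. Whether counting used strand is not given in the sources used here. The submitters' processing notes list cutadapt 4.8, FastQC 0.11.8, STAR 2.7.8a, and RSEM 1.3.3, so deposited counts may be rounded estimates. Totals were 19863304 to 21510054, and 95% intervals (normal approximation from edgeR standard errors) rest on the spread between libraries.

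After TMM scaling, all genes entered edgeR 4.0.16 (quasi-likelihood, robust; R 4.3.3), in 1 fit of 4 groups, with Benjamini-Hochberg adjustment over all genes. A call required an adjusted p below 0.05 and more than 1.5-fold change. Shares and counts over all genes are from edgeR, and those for DESeq2 were not computed. CPM are on TMM-scaled library sizes, and logarithms of CPM took a prior count of 2. Single genes were also compared by exact two-sided permutation of mean log2 CPM. Lengths came from GENCODE M21, which holds 23926 of the genes, and the slope on length from the 9694 genes of mean log2 CPM over 2. The fit was tested on simulated data. Alternatives were DESeq2 1.42.0 (which the authors used), its size factors in edgeR, filterByExpr, only the groups compared, the digits of the animal number or the length slope as a covariate, 4-digit animals only, and leaving out libraries.

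The 10 genes and all gene lists were chosen with earlier results of these data known. Beyond the 10, up to 4 genes per list with the smallest adjusted p, and a few preset ones, are named. Some genes of the lists are not reported here. Labels give separate animals. Animal numbers had 3 digits in 6 of 7 controls and 1 of 6 *Lmna* ADKO mice with vehicle, so no comparison within one number series was possible there. All controls with FGF21 had 4 digits, so FGF21 against vehicle in controls could not be compared within one series either.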

Additional observations from a re-analysis of the deposited data

Results flagged for a closer look

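In 30 combinations of gene and group with 4 to 10 libraries, 9 had a highest or lowest library whose distance from the nearest other, relative to the range of the group, was above Dixon's 95% critical value. The nominal rate would give 1.5 for independent, normally distributed values. The combinations share libraries and were tested in CPM, so the 9 cannot be read as an excess over that number. Of the 9, 4 concern *Lmna* ADKO FGF21 library 7, which held 18058 CPM of *Apoa1* (next 9830), 10941 CPM of *Apoa2* (next 6976), 2815 CPM of *Apoc3* (next 1670), and 54534 CPM of *Apoe* (next 34073). This library had the steepest slope on gene length, -0.33. Control vehicle library 3, with a slope of -0.15, held 43469 CPM of *Apoe* (next 30908).

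Control vehicle library 4 held 1046 CPM of *Apoa4* (next 396) and 399 CPM of *Apoc2* (next 256), and *Lmna* ADKO vehicle library 6 held 10678 CPM of *Apoa4* (next 5273). *Lmna* ADKO vehicle library 3 held the least *Apoe*, 21558 CPM (next 26177).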

How the results depend on the processing

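Of 1560 recomputed log2 fold changes of the 10 genes, 1486 kept their direction and side of the threshold, 14 newly passed, 5 no longer passed, and 55 changed sign, all of the latter for genes that had not passed. With vehicle, *Apoa4* (3.52 to 4.31) and *Apom* (-1.71 to -1.58) passed under all 31 alternatives. With the digits of the animal number as a covariate, 2 of 10 genes passed the adjusted p with vehicle, as *Apob* and *Apoc2* no longer did. With FGF21, the length slope as a covariate let 4 pass (adding *Apoc2* and *Apoc3*), and without the 3 libraries of steepest slope 1 was called and 1 passed the adjusted p, as *Apoa4* no longer did, with 2 control libraries left. The cause of these shifts was not tested. Among 4-digit animals, *Apoa5* with FGF21 changed sign in *Lmna* ADKO against control (0.037), as did *Apoc2* for FGF21 in *Lmna* ADKO livers (0.014). Without the 3 libraries, *Apoa1* (-0.034) and *Apoa5* (0.036) did so in *Lmna* ADKO against control with FGF21, *Apoa5* for FGF21 in control livers (-0.0060), and *Apoc2* (0.0055), *Apoc3* (0.020), and *Apoe* (0.020) in the interaction. With the digits as a covariate, *Apoa5* (-0.013) and *Apob* (-0.013) did so for FGF21 in control livers, and *Apoa2* (0.0052), *Apoc3* (0.27), *Apoe* (0.043), and *Mttp* (-0.061) in the interaction. With the length slope as a covariate, *Apoa5* (-0.050) did so for FGF21 in control livers, and *Apoc2* (0.019), *Apoc3* (0.042), and *Apoe* (0.027) in the interaction. Of the 45 pairs, r changed sign with the slope removed for 19, of which 3 were among the 15 past the threshold by Pearson's r, *Apoa2* with *Apoc3* (-0.035), *Apoc3* with *Mttp* (0.044), and *Apoe* with *Apom* (-0.20).

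Leaving out 1 library at a time changed signs within these ranges. For *Lmna* ADKO against control with FGF21, they were -0.21 to 0.21 for *Apoa1*, -0.64 to 0.085 for *Apoa2*, -0.20 to 0.048 for *Apoa5*, and -0.43 to 0.15 for *Apoe*. For FGF21 in control livers, they were -0.39 to 0.26 for *Apoc2*, -0.14 to 0.14 for *Apob*, -0.091 to 0.16 for *Apoa5*, -0.041 to 0.43 for *Apoc3*, and -0.063 to 0.52 for *Apoe*. For the interaction, they were -0.18 to 0.31 for *Apoc3*, -0.11 to 0.27 for *Apom*, -0.39 to 0.40 for *Apoa4*, -0.43 to 0.30 for *Apoa2*, -0.39 to 0.27 for *Apoc2*, -0.28 to 0.31 for *Apoe*, and -0.081 to 0.29 for *Mttp*. Of the 68 partner genes, 9 passed by edgeR and 19 by DESeq2 in *Lmna* ADKO against control with FGF21. With 3 control livers, comparisons that use controls with FGF21 rest on few animals. No count of members called or passing moved by over 1.5 times when 1 library was left out. Comparisons within one number series could be made only with FGF21 and within *Lmna* ADKO mice. With the longest transcript as the length, *Apoe* in control livers with vehicle was 20952 CPM per kb, *Apoc3* 2618, and *Mttp* 54.5.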
